A study of Homo sapiens with 5 samples.

Results

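The comparison described here is between 2 of the 5 H157 lines that were sequenced, the line with YAP and full-length TEAD4 (YAP/TEAD4-FL) and the line with YAP alone. It asks what changes in the RNA of cells that already carry YAP when TEAD4 is added. Its members were chosen by their sample labels, 1 library per line, and the genes compared are the 8305 of 25343 that averaged 10 or more CPM (counts scaled to a fixed library total) over the 5 libraries. H157 comes from a human lung carcinoma, and all 5 lines were stable lines grown in RPMI-1640 with serum and collected in mid-log growth. The other lines carry a control vector (labelled pCDNA-ctl), YAP with the short TEAD4 isoform (YAP/TEAD4-S) and YAP together with RBM4, a splicing factor (YAP/RBM4), and they are given as levels beside the main pair. Whether a line is a clone or a pool of cells is not stated in the paper or the labels. With 1 library per line there is no replicate, so no test between the lines was possible, and a difference between lines cannot be told apart from a difference between cultures or libraries.

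TEAD4 is a transcription factor with an N-terminal DNA-binding domain and a C-terminal domain that binds YAP. YAP has no DNA-binding domain of its own. In the Hippo pathway, the LATS kinases phosphorylate YAP and keep it out of the nucleus, and YAP that enters the nucleus works through the TEAD proteins on genes such as CTGF and CYR61, whose products are secreted matricellular proteins. TEAD proteins bind a short DNA element with the letters GGAATG, often called MCAT.

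The 2 TEAD4 isoforms of the study differ in an exon at the 5′ end of the coding sequence. In the GENCODE annotation of hg19, TEAD4 lies on chromosome 12 from 3068496 to 3149842 on the plus strand. The transcript whose number of codons matches the title of the full-length library starts its coding sequence in exon 3, and the transcript that matches the title of the short one lacks that exon and starts at base 3126597. The coding part of exon 3 is shown because it separates the full-length from the short protein. It is 226 bases long, from 3103933 to 3104158, and the capitals mark CGGCCGG, which occurs once and has the high content of cytosine and guanine of the elements RBM4 is known to bind.
TEAD4 exon 3, coding part (chr12:3103933-3104158, hg19, plus strand): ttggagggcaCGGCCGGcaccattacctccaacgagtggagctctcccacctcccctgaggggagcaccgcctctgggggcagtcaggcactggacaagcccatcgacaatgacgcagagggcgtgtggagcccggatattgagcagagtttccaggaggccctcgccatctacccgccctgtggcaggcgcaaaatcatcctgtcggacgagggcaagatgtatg
The deposited values are per gene, so they do not tell which of these transcripts the reads came from.

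TEAD4 itself separated the lines. It had 3.73 CPM in the vector line, 3.57 in YAP, 120.6 in YAP/TEAD4-FL, 50.03 in YAP/TEAD4-S and 5.73 in YAP/RBM4. Both lines that were given TEAD4 stood above the others, and the line with the full-length form stood highest. Between the main pair the ratio was 33.8, with an exact 95% binomial interval of 14.3 to 104.7, from 289.1 expected counts against 5. Intervals of single-gene ratios here are of this kind (Clopper-Pearson). They cover counting error only, not differences between cultures or libraries, and reads are not independent molecules. Intervals of medians are from the ordered values of the genes.

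YAP1, the gene of YAP, had 33.1 CPM in the vector line, 102 in YAP, 136 in YAP/TEAD4-FL, 59.4 in YAP/TEAD4-S and 103.5 in YAP/RBM4. All lines given YAP were above the vector. The YAP/TEAD4-FL library held 1.33 (1.09 to 1.63) times the YAP1 level of the YAP library, and 1.26 (1.03 to 1.55) times with TMM factors. With 1 library per line, this does not show that the lines themselves differ in YAP1 RNA. Of the exon bases of YAP1, 10.1% lie opposite to exons of another gene. YAP1 lies on chromosome 11 of hg19 from 101981178 to 102104155. RBM4, which neither line was given, had a ratio of 0.978 (0.842 to 1.14).

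**Figure D1:**
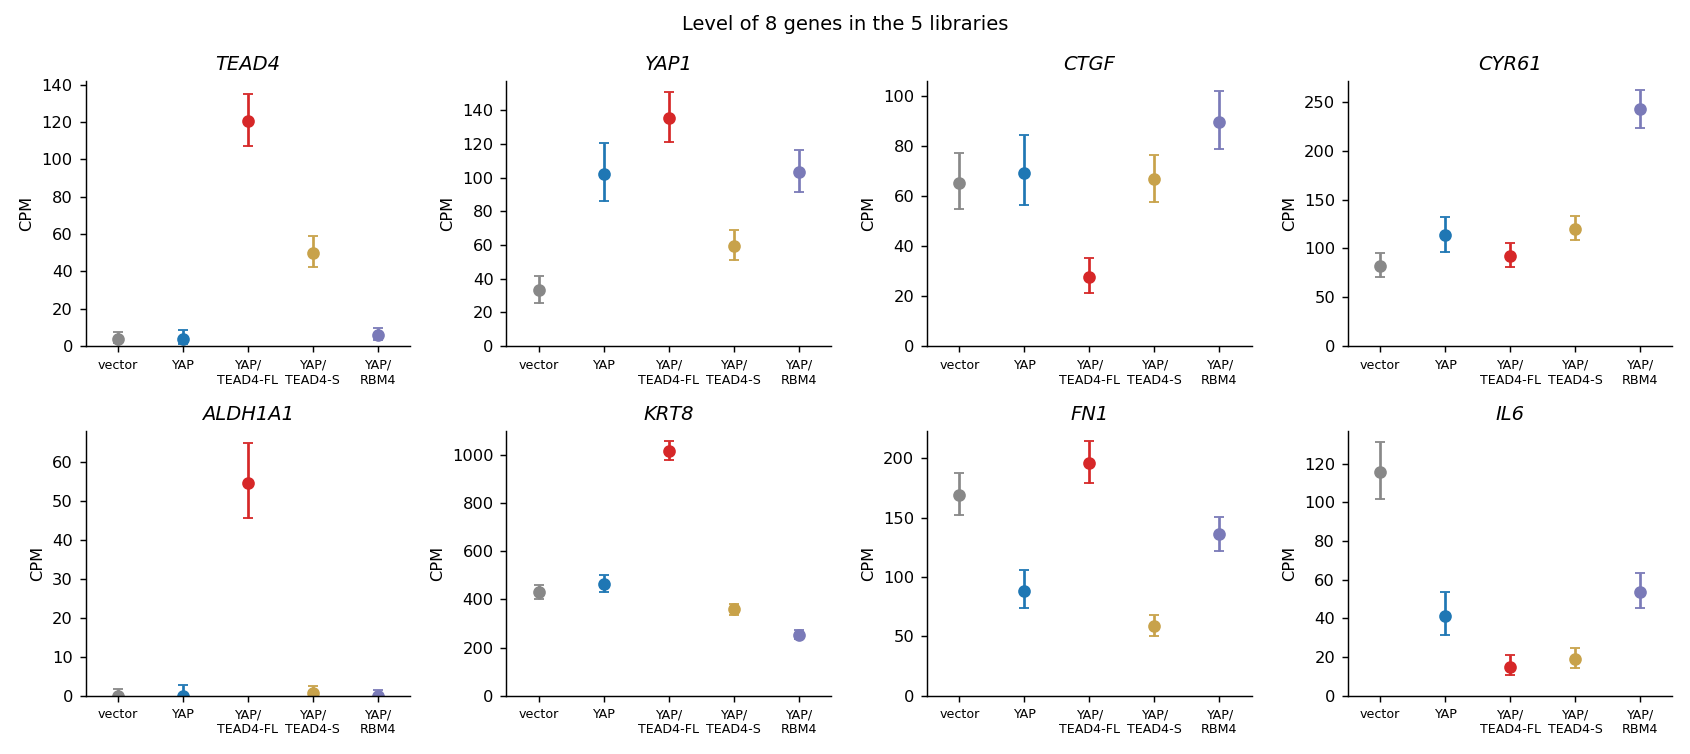
CPM (vertical axis, linear) of 8 genes in each of the 5 libraries (horizontal axis). Points are single libraries and bars are exact 95% Poisson intervals of the count. TEAD4 reaches 120.6 CPM and ALDH1A1 54.7 CPM in YAP/TEAD4-FL, while CTGF is lowest there at 27.4 CPM.

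Of the other TEAD genes, TEAD1 had 21.3 CPM in YAP and 27.9 CPM in YAP/TEAD4-FL, a ratio of 1.30 (0.836 to 2.08). TEAD2 had a ratio of 1.39 (0.755 to 2.66). TEAD3 was lower with TEAD4 added, at 13.4 CPM in YAP and 5.01 CPM in YAP/TEAD4-FL, a ratio of 0.369 (0.163 to 0.800) that rests on 18.8 and 12 expected counts. TEAD3 was also low in the other line with TEAD4, at 6.33 CPM in YAP/TEAD4-S, against 13.5 in the vector line and 13.7 in YAP/RBM4. WWTR1, the gene of the YAP paralog TAZ, had a ratio of 0.907 (0.711 to 1.16). VGLL4, which competes with YAP for TEAD, had 145.7 CPM in YAP and 91.0 in YAP/TEAD4-FL, a ratio of 0.624 (0.513 to 0.759). All 3 lines given a second gene besides YAP held VGLL4 between 90.3 and 96.5 CPM, against 194.9 in the vector line. Since 23.8% of the exon bases of VGLL4 lie opposite to exons of another gene, its counts are uncertain.

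The known targets of YAP and TEAD did not move together. Of 39 listed targets 29 passed the filter. The ratio interval lay above 1 for 4 of them and below 1 for 5, where 12.8% of all genes compared lay above 1 and 11.9% below. With TMM factors 4 lay above 1 and 7 below, where 9.75% and 16.7% of all genes compared did. Their median log2 ratio was 0.16 above that of all genes, with an interval from the ordered values of −0.21 to 0.41. CTGF had 65.3 CPM in the vector line, 69.4 in YAP, 27.4 in YAP/TEAD4-FL, 66.7 in YAP/TEAD4-S and 89.7 in YAP/RBM4. The other 4 libraries thus held CTGF above the level found in YAP/TEAD4-FL, whose ratio to YAP alone was 0.397 (0.286 to 0.549). CTGF is on chromosome 6 of hg19 from 132269316 to 132272512, and LINC01013 lies opposite to 11.9% of the bases in its exons. CYR61 had 82.5 CPM in the vector line, 113.6 in YAP and 92.6 in YAP/TEAD4-FL, a ratio of 0.815 whose interval reached 1.01. With TMM factors its interval, 0.629 to 0.956, lay below 1.

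Among the other targets, AREG, a ligand of the EGF receptor, had a ratio of 0.511 (0.271 to 0.958). F3, tissue factor, had one of 0.564 (0.323 to 0.982), TNFAIP8 0.584 (0.343 to 0.993) and LGALS1, a galectin, 0.811 (0.669 to 0.985). Among those higher in YAP/TEAD4-FL were GADD45A, a stress gene, at 2.08 (1.18 to 3.88), IGFBP3, a binding protein of insulin-like growth factors, at 2.04 (1.16 to 3.82), and CRIM1 at 1.82 (1.16 to 2.95). AMOTL2, AXL and PTPN14, which are often read as YAP targets, had ratios of 1.01, 1.14 and 1.03 with intervals that held 1. ITGB1, an integrin subunit, had 88.6 CPM in YAP and 123.1 in YAP/TEAD4-FL, a ratio of 1.39 (1.12 to 1.73). It was also high in the vector line, at 129.9 CPM.

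Of 43 genes of the Hippo pathway, TEAD4 among them, 29 passed the filter. The interval lay above 1 for 4, namely TEAD4, YAP1, FAT1 and CSNK1E, and below 1 for TEAD3, VGLL4 and CSNK1D. These shares, 13.8% and 10.3%, were near the 12.8% and 11.9% of all genes compared. FAT1, an atypical cadherin, had 7.15 CPM in YAP and 20.4 in YAP/TEAD4-FL, a ratio of 2.86 (1.43 to 6.34), and the vector library held 20.5 CPM. For the core kinases and their partners that passed the filter the interval held 1, except that MOB1B lay below 1 with TMM factors (0.575 to 0.955). STK4 had a ratio of 0.984 (0.797 to 1.22), LATS1 0.792 (0.474 to 1.34), LATS2 1.61 (0.993 to 2.68), SAV1 1.16 (0.847 to 1.60), MOB1B 0.779 (0.605 to 1.005) and NF2 0.961 (0.829 to 1.11).

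The sequences upstream of 2 YAP targets and of the gene with the largest ratio are shown next, because they differ in how often they hold the letters that TEAD proteins bind. They are the 250 bases before the start of each gene in RefSeq on GRCh38.p14, printed 5′ to 3′ on the strand of the gene, with GGAATG or its complement CATTCC in capitals. CTGF, which was lower in YAP/TEAD4-FL, holds 3. NUAK2, a kinase gene and YAP target with a ratio of 0.942 (0.815 to 1.09), holds 2, and ALDH1A1, which was high in YAP/TEAD4-FL, holds 0.
CTGF (chr6:131951373-131951622, GRCh38.p14, minus strand): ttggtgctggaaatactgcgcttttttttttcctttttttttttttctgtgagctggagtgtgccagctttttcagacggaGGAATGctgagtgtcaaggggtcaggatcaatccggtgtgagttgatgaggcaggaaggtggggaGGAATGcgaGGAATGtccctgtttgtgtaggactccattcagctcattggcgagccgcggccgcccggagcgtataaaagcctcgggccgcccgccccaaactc
NUAK2 (chr1:205321746-205321995, GRCh38.p14, minus strand): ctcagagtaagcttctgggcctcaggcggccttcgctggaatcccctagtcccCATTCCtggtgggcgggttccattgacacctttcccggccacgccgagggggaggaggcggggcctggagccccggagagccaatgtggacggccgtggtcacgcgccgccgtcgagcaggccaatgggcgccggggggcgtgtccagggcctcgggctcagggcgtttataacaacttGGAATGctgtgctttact
ALDH1A1 (chr9:72953054-72953303, GRCh38.p14, minus strand): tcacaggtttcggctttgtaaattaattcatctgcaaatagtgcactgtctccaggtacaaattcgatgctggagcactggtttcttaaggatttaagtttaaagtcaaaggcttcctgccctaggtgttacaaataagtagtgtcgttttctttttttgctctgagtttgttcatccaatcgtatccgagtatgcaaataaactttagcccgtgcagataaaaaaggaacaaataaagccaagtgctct
Over the whole promoter windows of RefSeq, from 250 bases before to 50 after the start, 6227 of the 8305 genes were matched. GGAATG was in 12.6% of the promoters of genes at least 2-fold higher in YAP/TEAD4-FL, in 10.6% of those at least 2-fold lower, in 10.7% of all genes compared and in 14.0% of all 27305 promoters, on either strand. These shares were close to each other. CCAAT, the NF-Y element, was in 38.2%, 37.6%, 36.4% and 35.7%, in the same order. TTTGAA or TTCGAA, letters of the CHR element of cell cycle genes, were in 17.6% (35 of 199) of the higher genes, 7.06% (6 of 85) of the lower genes, 11.7% of all genes compared and 16.6% of all promoters. The E2F letters (TTTCCCGC, TTTCGCGC, TTTGCCGC or TTTGGCGC) were in 6.03%, 2.35%, 5.25% and 3.33%, the E-box CACGTG in 11.1%, 7.06%, 9.60% and 7.43%, and the AP-1 element TGACTCA in 3.02%, 7.06%, 3.87% and 4.92%. A match of letters is a description of the window and no sign of binding.

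Over all genes the lines were alike. The median log2 ratio was 0.02 on library totals and −0.05 with TMM factors, and the middle 50 percent of genes lay between −0.23 and 0.33. At least 2-fold higher in YAP/TEAD4-FL were 255 genes (3.07%), and 118 (1.42%) were at least 2-fold lower. With DESeq2 size factors these counts were 210 and 150. The interval left out 1 on the upper side for 1060 genes and on the lower side for 990, which became 810 (9.75%) and 1384 (16.7%) with TMM factors, so the balance of small differences depends on the scaling. Depth limits these ratios, since the YAP library held 1399452 expected counts and a gene compared had a median of 49.8 counts there, against 2396789 and 87.9 in YAP/TEAD4-FL. The other libraries held between 2144934 and 3015173. Among genes at 100 CPM or more, 36 of 1577 were at least 2-fold apart.

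**Figure D2:**
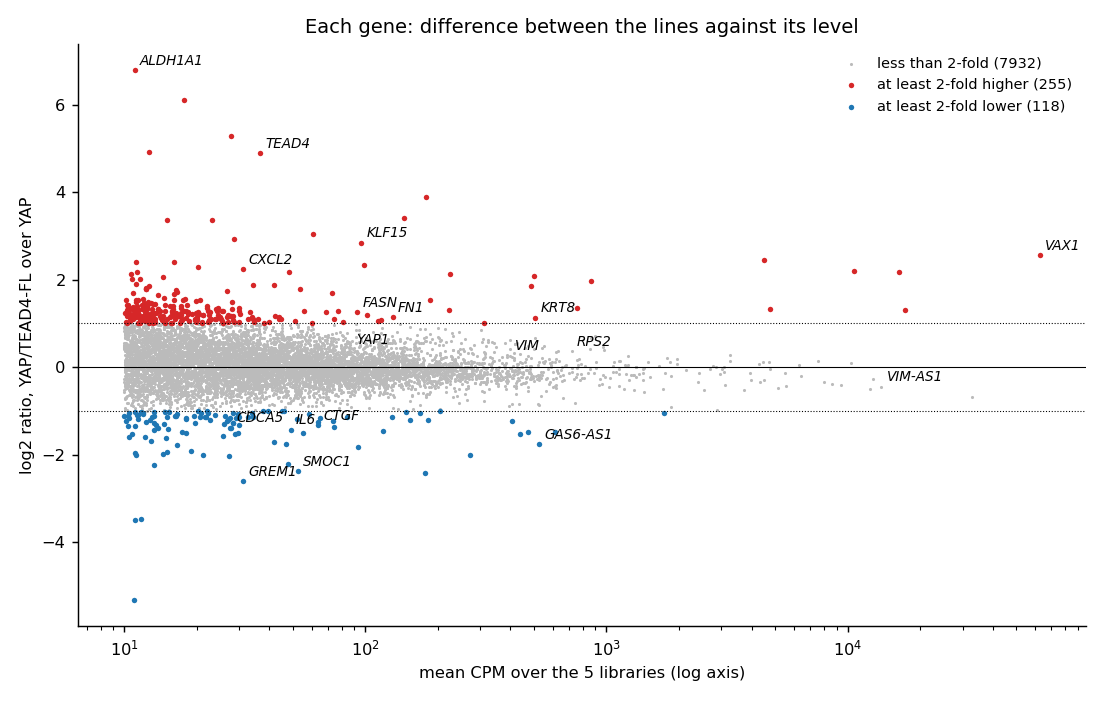
Log2 ratio of YAP/TEAD4-FL to YAP (vertical axis) against the mean CPM over the 5 libraries (horizontal axis, log scale), 1 point per gene. The 255 red genes are at least 2-fold higher and the 118 blue genes at least 2-fold lower, most of them at low levels, and dotted lines mark 2-fold.

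The number of genes 2-fold apart was not large for a pair of these libraries. It was 373 (4.49%) for the main pair and ranged from 235 to 634 over the 10 pairs of the 5 libraries. The place of the 5 libraries is given next for each direction. Among the 255 higher genes, the YAP library was the lowest of the 5 for 75.7%, where it was lowest for 13.8% of all genes compared, and YAP/TEAD4-FL was the highest for 58.4%, where it was highest for 22.8% of all. The vector lay between the 2 lines for 170 of them, and 56 (22.0%) were at least 2-fold higher in YAP/TEAD4-FL than in the vector line, where 3.41% of all genes compared were. Among the 118 lower genes, YAP/TEAD4-FL was the lowest of the 5 for 76.3%, where it was lowest for 6.96% of all, and 80 (67.8%) were also at least 2-fold below the vector, where 3.17% of all were. The genes of each direction were chosen by the ratio of the main pair, so the place of these 2 libraries is a description. The ratios to the vector reuse the same YAP/TEAD4-FL library, so shares above those of all genes compared are partly built in.

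ALDH1A1, which oxidises retinaldehyde and other aldehydes and is used as a marker of stem-like cells, had the largest ratio. It had 0 counts in the vector line, 0 in YAP, 131 in YAP/TEAD4-FL, and 0 in YAP/RBM4, and stood at 54.7 CPM in YAP/TEAD4-FL and 0.663 CPM in YAP/TEAD4-S. Against a floor of 3 counts in the YAP library it was at least 25.5-fold higher. Its mean of 11.1 CPM passed the filter only through the YAP/TEAD4-FL library, so its place among the genes compared follows from its level there. It is on chromosome 9 of hg19 from 75515587 to 75695358, and no exon of it lies in exons of other genes. The other aldehyde dehydrogenases did not follow it. Of 18 listed, 13 passed the filter, ALDH1A1 was the only one with an interval above 1, and ALDH6A1 was lower at 0.821 (0.752 to 0.898).

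KLF15, a Krüppel-like factor of metabolism, had 168.6 CPM in the vector line, 20.9 in YAP, 153.7 in YAP/TEAD4-FL, 59.6 in YAP/TEAD4-S and 77.5 in YAP/RBM4. The ratio of the main pair was 7.41 (5.07 to 11.2), and the low library was that of YAP alone. CXCL2, a chemokine for neutrophils, had 35.3 CPM in the vector line, 11.4 in YAP and 55.4 in YAP/TEAD4-FL, a ratio of 4.85 (2.88 to 8.74). CTSL, a lysosomal protease, had 77.9, 23.6 and 82.2 CPM and a ratio of 3.49 (2.40 to 5.20). For these 3 genes YAP/TEAD4-FL stood near or above the vector. EIF3CL, ANKHD1 and RAD54B also had 0 counts in YAP and 45.3, 81.0 and 34.8 expected counts in YAP/TEAD4-FL, but the first has a near-identical copy, EIF3C, and the others share most of their exon bases with other genes. DDX11, a DNA helicase with near-identical copies in the genome, had 3.44 CPM in YAP and 20.5 in YAP/TEAD4-FL, and its reads may be split among those copies.

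Several of the largest ratios were in genes whose levels followed that of VAX1 over the libraries. VAX1, a homeobox gene, had 7133 CPM in YAP and 42206 in YAP/TEAD4-FL, a ratio of 5.92 (5.797 to 6.04), but 63157 in the vector line and 140664 in YAP/TEAD4-S. The 15 genes whose level followed VAX1 over the 5 libraries (Pearson r of at least 0.95 and a range of at least 2 on the log2 scale, a rule set after their values were seen) included PAFAH1B2, SLITRK2, THRAP3, FZD5, LYPD4, EFNA2 and MLLT3. Together they held 9.47% of the counts in the vector line, 1.098% in YAP, 5.99% in YAP/TEAD4-FL, 22.9% in YAP/TEAD4-S and 8.60% in YAP/RBM4. FZD5, a WNT receptor, had 110.9, 3.16, 54.1, 645 and 82.2 CPM in that order of libraries, and THRAP3, a protein of RNA processing, 3765, 289, 1570, 14103 and 2795. In this set YAP alone was the lowest library, YAP/TEAD4-FL lay below the vector, and YAP/TEAD4-S was the highest. The set accounts for 13 of the 255 higher genes and spans levels from very high to low, since EFNA2 had 0.936 CPM in YAP and 14.3 in YAP/TEAD4-FL. Without it 242 genes were at least 2-fold higher.

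The 12 smallest ratios, among genes with an interval below 1 and at most 10% of exon bases shared on each strand, were of genes of many kinds. RASA4B had the lowest, 0.0449 (0.00106 to 0.299), on 12.9 and 0.860 expected counts, and its reads may be split with its near-identical copy RASA4. GREM1, an antagonist of BMP ligands, had 30.3 CPM in the vector line, 35.7 in YAP, 5.42 in YAP/TEAD4-FL, 31.2 in YAP/TEAD4-S and 53.4 in YAP/RBM4. SMOC1, a calcium-binding matrix protein that also acts on BMP signalling, had 61.5, 50.02, 9.18, 34.5 and 106.9 CPM in that order. Both were lowest in YAP/TEAD4-FL, at ratios to YAP of 0.152 (0.0757 to 0.284) and 0.184 (0.108 to 0.300). OSM, the cytokine oncostatin M, was at 0.239 (0.0968 to 0.540) and SLC30A1, a zinc exporter, at 0.326 (0.199 to 0.522). KIF21B, a kinesin, was at 0.292 (0.138 to 0.589), BFSP1, a filament protein known from the lens, at 0.305 (0.138 to 0.638) and AANAT, an enzyme of melatonin synthesis, at 0.336 (0.192 to 0.575). The other 4 were antisense or long non-coding genes. LINC00565 had 69.3 CPM in YAP and 14.6 in YAP/TEAD4-FL. IGFBP7-AS1 had 258 CPM in YAP and 64.1 in YAP/TEAD4-FL, GAS6-AS1 had 713.9 and 209.6, and LOXL1-AS1 had 158 and 56.9. Of their partners, GAS6, a ligand of AXL, was lower, at 67.2 and 35.0 CPM and a ratio of 0.522 (0.384 to 0.708), and so was IGFBP7 at 0.415 (0.282 to 0.607). LOXL1, a lysyl oxidase, had a ratio of 0.761 whose interval of 0.530 to 1.098 held 1.

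**Figure D3:**
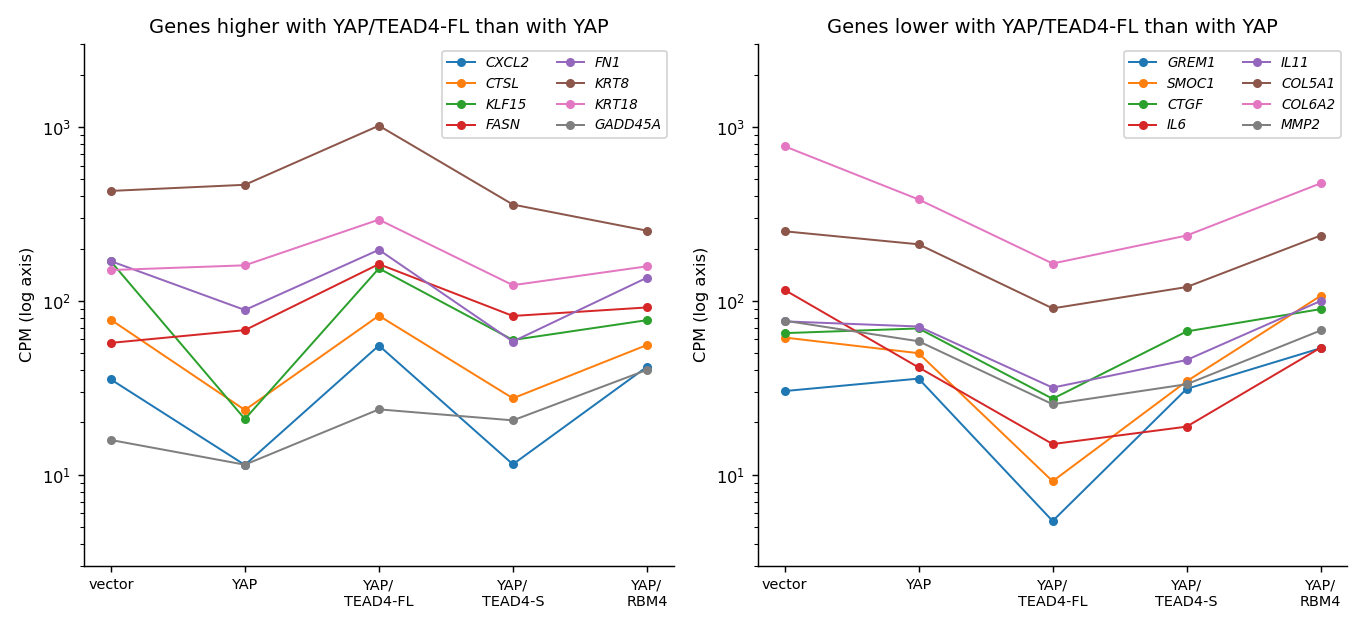
CPM (vertical axis, log scale) of 8 genes higher and 8 genes lower in YAP/TEAD4-FL than in YAP, in the 5 libraries (horizontal axis), 1 library per point. In the right panel the YAP/TEAD4-FL library is the lowest of the 5 for all 8 genes, and in the left panel it is the highest for all but KLF15 and GADD45A.

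A share of the matrix genes was lower as well. Of 46 listed 32 passed, and the interval lay below 1 for 10 (31.2%, beside 11.9% of all genes compared) and above 1 for 5. Their median log2 ratio was 0.24 lower than that of all genes, with an interval of −0.54 to 0.11. COL6A2 had 774.4 CPM in the vector line, 383 in YAP, 164 in YAP/TEAD4-FL, 237.5 in YAP/TEAD4-S and 474.2 in YAP/RBM4. Its ratio was 0.428 (0.375 to 0.488), and its partner chain COL6A1 was at 0.516 (0.432 to 0.615). The fibril and anchoring collagens COL5A1, at 0.428 (0.358 to 0.512), and COL7A1, at 0.450 (0.341 to 0.590), and the gelatinase MMP2, at 0.434 (0.307 to 0.613), moved likewise. LOX, which cross-links collagen, went the other way at 2.03 (1.53 to 2.72), as did COL4A2 of the basement membrane at 1.29 (1.104 to 1.5), while COL4A1 was at 1.21 (1.00 to 1.45). With TMM factors 2 matrix genes lay above 1, and the interval of COL4A1, 0.952 to 1.38, held 1. Of the 32 genes, 10 had their lowest level of the 5 libraries in YAP/TEAD4-FL.

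The cytokine genes were split. Of 30 genes of NF-kB and cytokines 15 passed, 5 below 1 (33.3%, beside 11.9% of all genes compared) and 1, CXCL2, above (6.67%, beside 12.8%). IL6 had 115.6 CPM in the vector line, 41.4 in YAP, 15.0 in YAP/TEAD4-FL, 18.9 in YAP/TEAD4-S and 53.8 in YAP/RBM4, a ratio of 0.362 (0.232 to 0.559). IL11, a relative of IL6, was at 0.444 (0.325 to 0.604), NFKBIA, the inhibitor of NF-kB, at 0.613 (0.425 to 0.885), ICAM1 at 0.743 (0.584 to 0.947) and CCL5 at 0.828 (0.759 to 0.904). CFB of complement was at 0.334 (0.169 to 0.638), with 42.8% of its exon bases in exons of another gene.

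The simple keratins KRT8 and KRT18 were higher in YAP/TEAD4-FL than in YAP. Of 9 keratin and desmosome genes that passed, 2 (22.2%) were above 1 and 1 (11.1%) below, beside 12.8% and 11.9% of all genes compared. KRT8 had 429 CPM in the vector line, 465 in YAP, 1017 in YAP/TEAD4-FL, 358 in YAP/TEAD4-S and 253 in YAP/RBM4. Its ratio was 2.19 (2.004 to 2.39), and that of its partner KRT18 was 1.83 (1.57 to 2.14). The 2 genes overlap on opposite strands, over 7.63% of the exon bases of KRT8 and 17.1% of those of KRT18. DSG3, a cadherin of desmosomes, was lower at 0.401 (0.267 to 0.599), CLDN4, a claudin of tight junctions, at 0.526 (0.413 to 0.667), and CDH1, epithelial cadherin, at 0.732 (0.597 to 0.898). FN1, fibronectin, had 169.2, 88.6 and 196.6 CPM in the vector line, YAP and YAP/TEAD4-FL, a ratio of 2.22 (1.82 to 2.73). CDH2, neural cadherin, had 11.8, 5.12 and 12.3 CPM in that order, a ratio of 2.50 (1.08 to 6.75). It rests on 7.16 expected counts in YAP and 29.5 in YAP/TEAD4-FL. VIM was at 1.20 (1.08 to 1.33). Since 24.6% of the exon bases of VIM lie opposite to exons of VIM-AS1, its counts are uncertain. VIM-AS1 went the other way, at 0.736 (0.724 to 0.747). Of the genes named here, the epithelial ones thus moved in both directions, and FN1 and CDH2 were higher than in YAP alone. Of 22 genes of epithelial-mesenchymal transition, cadherins and integrins that passed, 8 (36.4%) were above 1 and 2 (9.09%) below. Of all genes compared 12.8% and 11.9% were.

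Genes of protein synthesis were higher as groups. Of the cytosolic ribosomal proteins, all but 1 of 78 passed, the interval lay above 1 for 71 of 77 (92.2%, beside 12.8% of all genes compared) and below 1 for 0, and the median log2 ratio was 0.53 above that of all genes (0.49 to 0.54). Single genes ranged from RPL28 at 0.970 to RPS13 at 2.34. RPS25, for example, had 392 CPM in YAP and 618 in YAP/TEAD4-FL, and RPL4 had 179 and 312. Of 39 translation factors 24 were above 1 and 1 below, with a median 0.45 above that of all genes, among them EIF3D at 2.48 (1.51 to 4.27). Of 32 ribosome biogenesis genes 13 were above 1 and 0 below, with 8 at least 2-fold higher (beside 3.07% of all genes) and a median 0.51 above. NOP58, a protein of the box C/D snoRNPs, was at 3.04 (1.73 to 5.68). The growth gene MYC had 17.9 and 35.5 CPM, a ratio of 1.99 (1.26 to 3.24).

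Chaperones were higher as a group too, with 19 of 27 above 1 (70.4%, beside 12.8% of all genes compared) and 0 below (beside 11.9%). Their median was 0.57 above that of all genes, and 15 lay above 1 with TMM factors (beside 9.75% of all). HSP90AA1 had 250 CPM in YAP and 451 in YAP/TEAD4-FL, a ratio of 1.81 (1.60 to 2.05), and HSPA1A had 82.2 and 153.8. The shares were smaller in the next lists. Of 44 respiratory chain subunits 10 (22.7%) were above 1 and 1 (2.27%) below, with a median 0.50 above. With TMM factors 8 were above and 2 below. Of 32 SR proteins and hnRNPs, which steer splicing, 15 (46.9%) were above 1 and 0 below, with HNRNPH1 at 2.55 (1.53 to 4.45). Of 33 core spliceosome genes 9 (27.3%) were above and 0 below. FASN, fatty acid synthase, had 57.3 CPM in the vector line, 67.9 in YAP and 162.7 in YAP/TEAD4-FL, a ratio of 2.40 (1.91 to 3.03), and FADS2, a desaturase, was lower at 0.623 (0.540 to 0.718). FTL, the ferritin light chain, had 748 and 1222 CPM.

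The place of the YAP library differed between these lists. For the ribosomal proteins the median log2 ratio to the vector, relative to all genes, was −0.19 in YAP and 0.33 in YAP/TEAD4-FL. For the chaperones it was −0.21 and 0.29, for the translation factors −0.19 and 0.34, and for ribosome biogenesis −0.18 and 0.48. The respiratory chain subunits stood at 0.03 and 0.52, the SR proteins and hnRNPs at 0.13 and 0.54 and the core spliceosome genes at 0.20 and 0.56, so for these YAP was not below the vector. The ratio of YAP/RBM4 to YAP, which shares the YAP library with the main pair, was 0.54 for the ribosomal proteins, 0.43 for the translation factors and 0.15 for the chaperones, and that of YAP/TEAD4-S to YAP was 0.30, 0.32 and 0.29.

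Some genes of G2 and mitosis were higher. Of 65 listed 37 passed, with 10 above 1 (27.0%, beside 12.8% of all genes compared), 1 below (2.70%, beside 11.9%) and a median 0.38 above that of all genes. CENPF, a kinetochore protein, had 9.32 CPM in the vector line, 11.4 in YAP, 34.2 in YAP/TEAD4-FL, 15.6 in YAP/TEAD4-S and 16.8 in YAP/RBM4, a ratio of 2.99 (1.74 to 5.48). MKI67, a marker of cycling cells, had 59.3 CPM in YAP and 97.6 in YAP/TEAD4-FL, a ratio of 1.65 (1.28 to 2.14), and TOP2A was at 1.65 (1.15 to 2.42). CDCA5, a regulator of cohesin, was the exception, at 37.9 and 14.2 CPM and a ratio of 0.375 (0.236 to 0.587). YAP/TEAD4-FL was the highest of the 5 libraries for 26 of the 37. Relative to the vector the median of the list, after taking off that of all genes, was 0.35 in YAP and 0.79 in YAP/TEAD4-FL. For DNA replication, 27 genes passed and the median difference from all genes was 0.13, with an interval of −0.17 to 0.41. Of these 6 (22.2%) were above 1 and 2 (7.41%) below, which became 2 and 2 with TMM factors. MCM3, a subunit of the replicative helicase, was at 2.32 (1.53 to 3.61), and RRM2, of ribonucleotide reductase, at 0.745 (0.558 to 0.998). E2F1 and PCNA did not reach the filter, with 3.57 and 8.76 CPM for E2F1 and 2.14 and 9.17 CPM for PCNA.

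Genes of TGF-beta and BMP signalling had a median 0.61 above that of all genes, with a wide interval of −0.18 to 0.81. Of 21 genes 8 were above 1 (38.1%, beside 12.8% of all genes compared) and 1 below (4.76%, beside 11.9%). Relative to the vector the median of the list, after taking off that of all genes, was −0.38 in YAP and −0.14 in YAP/TEAD4-FL. TGFBR2, a receptor, was at 2.45 (1.21 to 5.48), TGFBI, a matrix protein induced by TGF-beta, at 1.97 (1.44 to 2.73), and SMURF2, a ubiquitin ligase of SMAD proteins, at 3.74 (2.23 to 6.66). SMURF2 also had 123.1 CPM in the vector line and 2177 in YAP/TEAD4-S. LTBP2, a binding protein of latent TGF-beta, was lower, at 381 and 206 CPM and a ratio of 0.541 (0.478 to 0.613).

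The balance between overlapping genes on opposite strands differed between the main pair and bears on these values. VIM-AS1 was listed far above VIM in both lines, with 19479 and 14327 CPM against 393 and 472. Over 408 pairs of a gene and an antisense gene named for it, the antisense gene was listed higher in 243. CBR3-AS1 stood at 10246 and 8041 CPM in YAP and YAP/TEAD4-FL, against 2.86 and 1.67 for CBR3. ACTB had 901.5 and 922.2 CPM, below both of these antisense genes. The column names contain the words second_strand, so the counting was set to a strand, and whether that setting matches the libraries was not settled here. A count under a gene with an overlapping partner may therefore hold reads of the partner. If the setting does not match, the count of a gene without a partner would miss reads as well, which was not tested. In 202 pairs in which a gene at 100 CPM or more overlaps a gene on the other strand and has at least 5 times its level, the partner held a median of 8.96% of the fuller gene in the vector line, 7.33% in YAP, 9.55% in YAP/TEAD4-FL, 8.56% in YAP/TEAD4-S and 9.62% in YAP/RBM4. YAP had the lowest value. Between the main pair the fuller gene had a median log2 ratio of −0.15 and its partner 0.12, a difference of 0.30 (0.17 to 0.39), and the partner was higher relative to the fuller gene in 148 pairs. The part of this shift in the results of the gene lists was not tested. Among the genes with at most 10% of their exon bases in exons of other genes on each strand, the ribosomal proteins had 56 of 60 above 1, the chaperones 14 of 22, the translation factors 18 of 30 and the matrix genes 9 of 29 below 1. Of all genes compared, 12.8% lay above 1 and 11.9% below. The 5662 genes with little overlap had a median log2 ratio of 0.06, against 0.02 for all genes compared. Little overlap does not remove an effect of the strand setting, so these counts do not tell whether it has a part.

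By class of gene, the 629 long non-coding genes had a median log2 ratio 0.17 lower than that of all genes, with an interval of −0.21 to −0.15. The shift was not particular to this class, since 60 transcribed unprocessed pseudogenes were lower too, at −0.20 (−0.32 to −0.06). Whether the strand setting has a part in it was not tested. The next counts are again of the 629 long non-coding genes. Of them 5 (0.795%, beside 3.07% of all genes compared) were at least 2-fold higher and 20 (3.18%, beside 1.42%) at least 2-fold lower. The 6953 protein-coding genes had a median 0.04 above. The ratio also declined with level among genes with little overlap, from a median log2 value of 0.19 for 1758 genes between 10 and 20 CPM to −0.04 for the 878 genes above 100 CPM.

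The markers of other cell types were mixed, with most fibroblast markers at 0 and some leukocyte and endothelial genes well above it. The strand setting bears on these levels too, and its part was not tested. Of 6 fibroblast markers COL1A1 had 5.72 CPM in YAP and 6.38 in YAP/TEAD4-FL, COL3A1 had 0 and 3.76, and DCN, LUM, PDGFRA and COL1A2 were at 0 in both. The leukocyte genes CD3E and CD14 were at 0 to 2.92 CPM, while PTPRC, also a leukocyte gene, was listed at 253.9 and 218.2 CPM and LYZ at 137.9 and 134.2. The endothelial gene PECAM1 was listed at 147.5 and 122.6 CPM, with VWF at 0 in both. Of the epithelial markers KRT8, KRT18 and CDH1 were listed, and EPCAM and KRT19 had no more than 0.417 CPM.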

How the data were processed

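The libraries of 5 H157 lines, 1 for each line, were mapped to the columns of the deposited table through the sample titles. For alignment to hg19 the authors ran RSEM with Bowtie2; the submitters' processing notes give version 2.2.5 for the latter, and no version of the former was found. They deposited RSEM's expected counts by gene, estimates that can be fractions and that carry no scaling for depth. Both polyadenylated RNA and ribosomal depletion (Ribo-Zero, Total RNA kit) appear in the protocol, so the selection of RNA is unclear, and the stable line vectors in the methods and the control in the labels carry different names.

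CPM were computed on the library total, and log2 ratios after adding 0.5 CPM. The filter kept genes whose CPM averaged 10 or more over the 5 libraries, and 2-fold was called a difference. Ratios of single genes carry exact 95% Clopper-Pearson intervals of the rounded counts. R 4.3.3 with edgeR 4.0.16 (TMM) and DESeq2 1.42.0 (size factors) gave only scaling factors. The rest was done in Python 3.11.15 with numpy 2.4.6, pandas 2.3.3, scipy 1.17.1 and matplotlib 3.10.9. The scripts were tested on simulated counts. The authors' EBSeq analysis was not repeated. Of 25343 genes, 22987 were matched to GENCODE on hg19, 1450 of them by an older symbol, for coordinates and for exon bases shared with other genes. Promoter sequences are from RefSeq on GRCh38.p14.

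Genes named are TEAD, YAP and related genes, the 12 largest and 12 smallest ratios with an interval that leaves out 1 and at most 10% of exon bases shared on each strand, from each gene list the 4 members with the largest difference, members of the YAP target and Hippo lists, the most abundant genes, genes the study named and genes at 0 in a library of the pair. Other list members serve as examples picked with their values in view. The members and lists were chosen with earlier results of these data known. The alternatives were other scalings, pseudocounts, filters and thresholds.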

Additional observations from a re-analysis of the deposited data

How the results depend on the processing

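No paired analysis was possible because each line has 1 library and the labels carry no replicate numbers. The 255 higher and 118 lower genes stayed within 1.5 times of these counts under the other scalings, both pseudocounts and the added requirement of an interval, except as follows. At a mean of 1 CPM the counts were 1742 and 592, with no filter 2327 and 1129, and at 1.5-fold 1005 and 524. With at most 10% of exon bases shared 60 genes were lower. The next settings, 2 in all, were chosen after seeing the data. At 100 CPM or more 21 genes were higher and 15 lower, and without the genes that follow VAX1 the counts stayed within 1.5 times. The median log2 ratio over all genes was −0.048 with TMM factors, −0.060 with DESeq2 size factors, 0.042 without the 50 most abundant genes, 0.097 at 1 CPM, 0.000 with no filter and 0.060 with little exon overlap. Members of the lists that were 2-fold higher or lower, 60 and 12, became 161 and 27 at 1 CPM, 174 and 37 with no filter, and 238 and 32 at 1.5-fold. The ratios of TEAD4 and YAP1 stayed inside their counting intervals, from 22.0 to 32.9 and from 1.25 to 1.34. No named gene with an interval that left out 1 changed direction. Of the list medians 293 of 295 values stayed inside their intervals, the other 2 being those of the cytosolic ribosomal proteins. The cause of these shifts was not tested. Depth is the main limit, since 3 counts are 2.14 CPM in the YAP library, and differences of genes near 10 CPM rest on about 14 counts there.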

Other observations

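Some genes of glucose use, the antioxidant response and amino acid supply were also higher in YAP/TEAD4-FL than in YAP alone. Of 26 genes of glycolysis and hypoxia 9 had an interval above 1 (34.6%, beside 12.8% of all genes compared) and 0 below (beside 11.9%), with a median log2 ratio 0.39 above that of all genes (0.17 to 0.52), and ENO1, enolase, had 215 CPM in YAP and 314 in YAP/TEAD4-FL. Relative to the vector the median of this list, after taking off that of all genes, was −0.38 in YAP and 0.03 in YAP/TEAD4-FL. Of 19 targets of NRF2, the regulator of the antioxidant response, 7 (36.8%) were above 1 and 2 (10.53%) below, with TXNRD1, thioredoxin reductase, at 1.71 (1.34 to 2.201). Of 32 ATF4 targets and tRNA synthetases 9 (28.1%) were above 1 and 1 (3.12%) below, which became 7 and 4 with TMM factors (beside 9.75% and 16.7% of all genes compared), but relative to the vector their median, after taking off that of all genes, was −0.66 in YAP and −0.39 in YAP/TEAD4-FL. Of 19 interferon response and antigen presentation genes 5 were below 1 (26.3%, beside 11.9% of all) and 2 above (10.53%, beside 12.8%), with medians relative to the vector of −1.01 in YAP and −0.51 in YAP/TEAD4-FL. Their median log2 ratio of YAP/TEAD4-FL to YAP, relative to all genes, was −0.06 (−0.25 to 0.25). HLA-C had 218.2 CPM in the vector line, 82.0 in YAP and 59.2 in YAP/TEAD4-FL.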
